A study of Mus musculus with 8 samples.

Results

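The macrophage and myeloid genes described here are 30 genes of known or widely used myeloid expression, found by gene symbol in a table of 17258 genes from mouse seminal vesicle, and all 30 had a row in it. This gland of the male tract secretes much of the seminal fluid. Male outbred Swiss mice, 8 to 12 weeks old, were given intra-peritoneal acrylamide at 25 mg/kg body weight per day for 5 days, or the phosphate buffered saline vehicle alone (control). The gland was collected 72 h after the last injection, with the fluid pressed out and the prostate removed, and its poly(A) RNA was sequenced, with 4 mice per group. The comparison asks which myeloid transcripts differ in the whole gland after this exposure.

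Macrophages live in the connective tissue of most glands, where they take up dying cells, bacteria and antibody-coated material. They arise under the transcription factor PU.1 (Spi1) and depend on the growth factor receptor Csf1r. Scavenger and Fc receptors bind their cargo, and ITAM adaptors such as Tyrobp and Fcer1g pass receptor signals into the cell. Monocytes enter tissue from blood through the chemokine receptor Ccr2. As the RNA came from whole tissue, fewer cells of a type and less RNA per cell cannot be told apart.

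Each gene had 1 deposited value for each group, in reads divided by size factors (normalised reads, not corrected for gene length). For 27 of the 30 genes, the whole reads of each of the 8 libraries were recovered from the digits of both values. Lyz2, Mpeg1 and Lcp1 were not resolved and have group values only. The libraries are numbered 1 to 4 within each group by size factor, largest first, and could not be matched to the labelled mice. Summed over all genes, the group values came to 30956651 in control and 27433231 in acrylamide tissue. The deposited values give no total per library. The size factors ranged from 0.8862 to 1.021 in control and from 1.026 to 1.114 in acrylamide libraries. They did not overlap between groups, and acrylamide library 1 had the largest. Whether this affected the normalised reads was not tested.

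One acrylamide library stood apart in many of these genes and in T cell markers, though not in markers of every leukocyte. Acrylamide library 1 held the highest value of all 8 libraries for 18 of the 27 genes, and acrylamide library 4 for 6 more. Over all 9964 genes tested, acrylamide library 1 was the highest in 21.3% and library 4 in 11.9%. Markers of T cells were also highest there: the sum over 9 T cell markers was 393 normalised reads in acrylamide library 1, against 70.1 to 144 in the other acrylamide libraries and 91.1 to 121 in the control libraries. None of the 9 was without reads in this library, and Cd8b1, a chain of the T cell co-receptor CD8, had 34 reads there against 0 to 2 in the control libraries. Several counts over the genes, and the values of many but not all of the genes it moved, are given below with and without it.

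The 30 genes made up a small share of the reads of the gland. In control tissue the 30 genes held 0.0152% of all normalised reads, and in acrylamide tissue 0.0203%. Their summed group values were 4697 and 5563, of which Lcp1 alone made up 47.5% and 40.6%, and 2466 and 3302 without Lcp1. The total over all genes, to which the shares refer, was lower in acrylamide tissue. In control tissue this total of 30956651 held 6272385 for Svs2, 5820888 for Svs5 and 3608519 for Svs4, secretory genes of the gland. The shares therefore depend strongly on such genes. Their median control value was 69.3 normalised reads, against 109.5 over all genes. Cd68, Adgre1 and Csf1r, defining markers of macrophages, had reads in all 8 libraries. Divided by the longest coding transcript, the control value was highest for Lcp1 (L-plastin, an actin-bundling protein), with 581 normalised reads per kb. Ptprc, a gene of all leukocytes, had 16.1 per kb, and which cells gave the reads of Lcp1 was not tested. After Lcp1 came Lyz2 (lysozyme) with 233 and Fcer1g with 223, and the lowest were Msr1 with 1.74 and Siglec1 with 1.41 per kb.

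By group values, 27 of the 30 genes were higher in acrylamide than in control tissue and 3 were lower, namely Cd14, Tyrobp and Clec4n, and over all genes 51.3% were higher. The median log2 ratio was 0.36, beside 0.01 over all genes. A shift of this size was not particular to these genes. Lists of 6 fibroblast, 6 endothelial and 5 smooth muscle markers had medians of 0.41, 0.36 and 0.29. A list of 8 gland epithelium markers had -0.18. A ratio of at least 1.5 was reached by 7 of the 30 genes (Msr1, Chit1, Siglec1, Ccr2, Lyz2, Fcgr4 and Ptprc) and a ratio of at most 1/1.5 by 0. Over all genes, 10.2% reached the former and 7.08% the latter, and over genes with a mean of at least 10 these shares were 4.15% and 0.931%. These ratios carry no error, since they rest on 1 value per group. From the mean normalised reads of the 27 genes with reads, 6 reached a ratio of 1.5 with all libraries and 3 without acrylamide library 1 (Msr1, Siglec1 and Chit1). Likewise 24 were above 1 with all libraries and 20 without it, since Spi1, Adgre1, Lgals3 and Ms4a7 turned below 1.

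**Figure D1:**
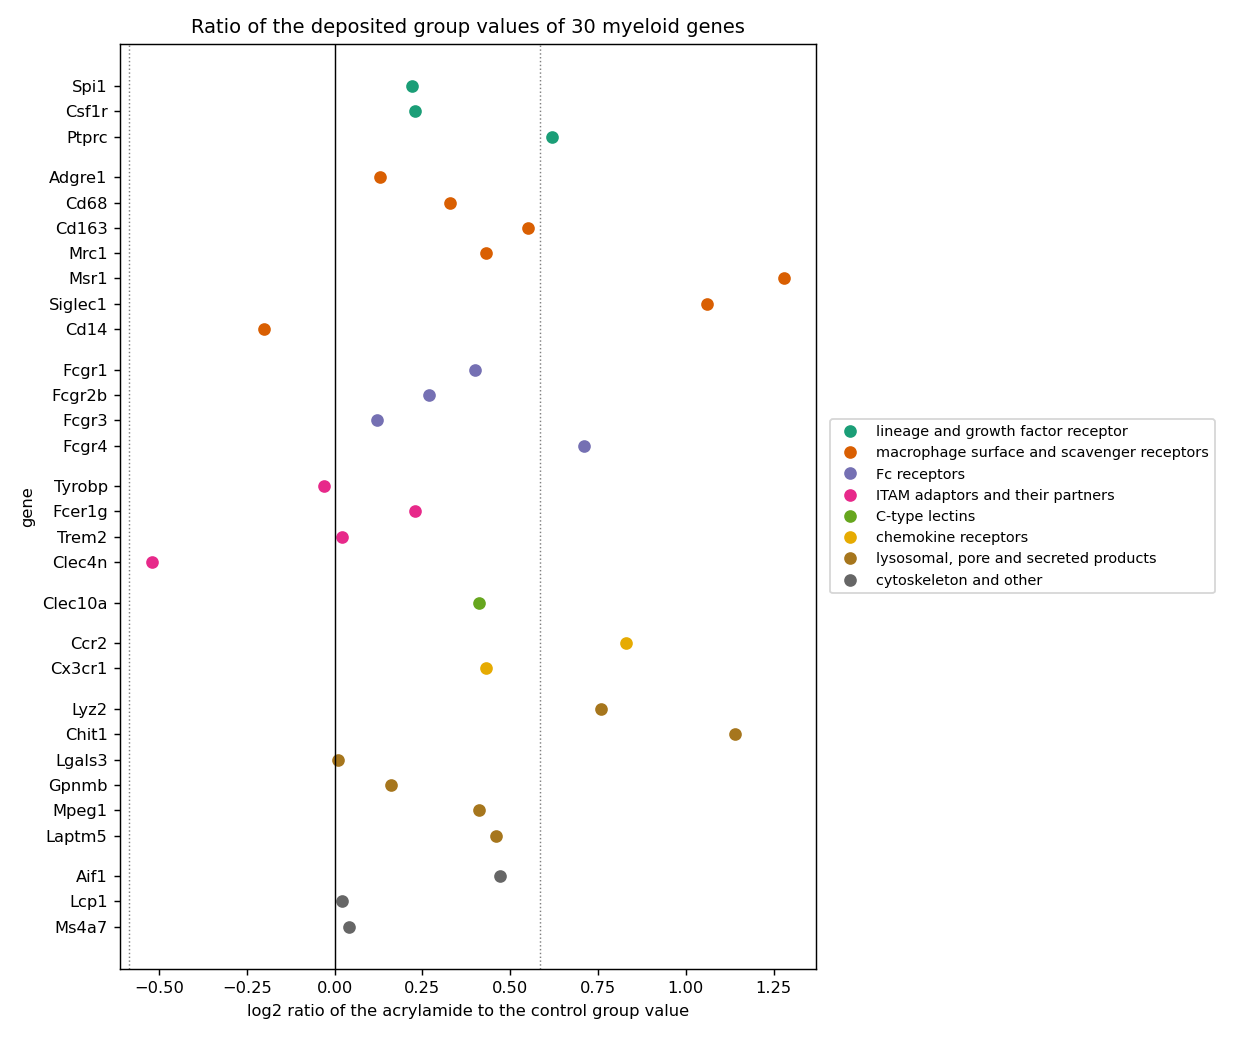
Log2 ratio of the acrylamide to the control group value (x axis) of each of the 30 genes (y axis), coloured by role. The dotted lines mark a ratio of 1.5 up and down. Of the 30 points, 27 lie to the right of 0, and 7 lie past the upper dotted line.

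Tested across libraries, none of the 27 genes passed the threshold. With limma on log2(normalised reads + 1), over 9964 genes with recovered reads and a mean of at least 1, 0 of the 27 had a Benjamini-Hochberg adjusted p of at most 0.1. Over all genes tested, this limit was passed upward by 0.0201% and downward by 0.0201%, which is 2 genes each way. At an unadjusted p under 0.05, 5 of the 27 were higher (Chit1, Siglec1, Mrc1, Cx3cr1 and Csf1r) and 0 lower, beside 7.17% higher and 2.97% lower over all genes tested. Without acrylamide library 1, only Chit1 and Siglec1 were under it, 2 higher and 0 lower, beside 5.88% higher over all genes tested. The median estimate of the 27 genes was 0.33 on the log2 scale, and 0.15 without acrylamide library 1, beside 0.05 and 0.04 over all genes tested.

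The libraries of both groups did not overlap in 2 of the 27 genes, Chit1 and Siglec1, both higher after acrylamide. This was so for 3.46% of all genes tested in the upward direction and 1.95% in the downward one. Without acrylamide library 1 the count was again 2, of the same genes, beside 5.21% upward and 3.54% downward. The exact two-sided permutation test over the 70 divisions of the libraries gave p = 0.0286 for these 2 genes, the smallest it can give. Groups that do not overlap always give this value, so it adds nothing to the count of such genes.

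Chit1 (chromosome 1, 134111242 to 134151541 on mm10) encodes chitotriosidase, a secreted chitin-cleaving enzyme. Which cells of the gland made this transcript was not tested. Its normalised reads were 196, 135, 111 and 181 in control libraries 1 to 4 and 314, 343, 218 and 491 in acrylamide libraries 1 to 4. Every acrylamide library lay above every control library, and here library 4, not library 1, was the highest. The means were 155 ± 39.7 (SD, n = 4) and 342 ± 113 (SD, n = 4). The limma estimate was 1.11 on the log2 scale (SE 0.22, adjusted p = 0.2), and 1.13 (SE 0.25, adjusted p = 0.25) without acrylamide library 1. The call depended on single libraries: the adjusted p was 0.099 without control library 1 and 0.09 without acrylamide library 3, both just inside the limit of 0.1.

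The promoter of Chit1, identifier 71884, is shown because this gene had the smallest p of the 27, and that of Fcgr4, identifier 246256, because it alone held the motif searched. Each covers 250 bases before to 50 after the gene start, from RefSeq on GRCm38.p6, on the plus strand at chr1:134110992-134111291 for Chit1 and chr1:171018676-171018975 for Fcgr4. Capitals mark GAGGAAGT, an 8-base form of the site of the PU.1 family, or its reverse complement.
Chit1: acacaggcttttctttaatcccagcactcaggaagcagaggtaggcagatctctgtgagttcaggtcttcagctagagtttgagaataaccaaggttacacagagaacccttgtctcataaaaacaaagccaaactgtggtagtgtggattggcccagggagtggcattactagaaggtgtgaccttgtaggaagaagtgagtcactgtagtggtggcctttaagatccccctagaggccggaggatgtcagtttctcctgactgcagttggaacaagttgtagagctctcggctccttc
Fcgr4: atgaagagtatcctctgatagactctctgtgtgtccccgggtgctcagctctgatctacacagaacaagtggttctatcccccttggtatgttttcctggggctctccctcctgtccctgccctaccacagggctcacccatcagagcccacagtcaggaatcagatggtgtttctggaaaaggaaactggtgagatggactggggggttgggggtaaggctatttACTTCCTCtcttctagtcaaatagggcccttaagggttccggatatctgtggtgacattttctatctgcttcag

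Of the 30 genes, 21 had a promoter in the RefSeq table, in 25 windows. GAGGAAGT, on either strand, was in 1 of the 25 windows (4%) and in 3.2% of all 32851 windows of that length. Its first 6 bases, GAGGAA, which every GAGGAAGT also holds, were in 11 of the 25 (44%) and in 28.3% of all. A match describes these letters only, and some of the windows overlap.

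The 3 genes of lineage and growth factor receptor were at middling levels, and none had separate groups. Csf1r, the receptor that macrophages need to survive, had 223, 232, 184 and 185 normalised reads in control and 278, 233, 233 and 227 in acrylamide libraries. Of the 4 acrylamide libraries, 3 lay above every control library, by little except for library 1. The limma estimate was 0.24 (SE 0.11, adjusted p = 0.49), and 0.17 (SE 0.11, adjusted p = 0.7) without acrylamide library 1. Spi1 had 30.4 to 75.6 normalised reads in control and 31.1 to 96.1 in acrylamide libraries, and its log2 ratio of means was 0.21 with and -0.1 without acrylamide library 1. Ptprc encodes CD45, a phosphatase on all leukocytes, T cells included. It had 73.5, 83.9, 81.3 and 88 normalised reads in control and 245, 80.9, 67.2 and 107 in acrylamide libraries, so that 1 library carried the group ratio of 1.53. Without acrylamide library 1 the log2 ratio of means fell from 0.62 to 0.06.

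Among the 7 surface and scavenger receptors, 6 had a group ratio above 1. Siglec1 (identifier 20612, chromosome 2, 131067801 to 131086778) is the sialic acid receptor sialoadhesin of tissue macrophages. It had 6.86, 10.4, 8.67 and 10.2 normalised reads in control and 23.3, 14.7, 20.4 and 16.6 in acrylamide libraries. The groups did not overlap, at 9.01 ± 1.62 and 18.8 ± 3.88 (SD, n = 4 each). Its limma estimate was 0.98 (SE 0.31, adjusted p = 0.34), and 0.87 (SE 0.33, adjusted p = 0.52) without acrylamide library 1. At these levels, whole reads numbered 7 to 10 per control library and 16 to 26 per acrylamide library, which limits the precision.

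Msr1, a scavenger receptor for modified lipoproteins, had the largest group ratio, 2.44, on very few reads. It had 5, 5, 12 and 2 reads in control and 29, 8, 7 and 22 in acrylamide libraries. Libraries 1 and 4 of the acrylamide group were high, and the other acrylamide libraries lay within the control range. The limma estimate was 1.14 (SE 0.54, adjusted p = 0.5), and 0.83 (SE 0.56, adjusted p = 0.71) without acrylamide library 1.

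Mrc1, the mannose receptor of tissue macrophages, had 85.2, 53.9, 64 and 67.7 normalised reads in control and 104, 88.2, 90.5 and 81.9 in acrylamide libraries. The groups overlapped through control library 1 and acrylamide library 4 only. Its limma estimate was 0.44 (SE 0.16, adjusted p = 0.41), and 0.37 (SE 0.18, adjusted p = 0.58) without acrylamide library 1. Cd68, a lysosomal glycoprotein, had 54.9 to 79.8 normalised reads in control and 75.9 to 103 in acrylamide libraries, with an estimate of 0.33 (SE 0.17, adjusted p = 0.54). Adgre1, which encodes the surface antigen F4/80, had 47.7 to 79 and 62.3 to 89.8, and its log2 ratio of means was 0.13 with and -0.01 without acrylamide library 1. Cd163, the haemoglobin scavenger receptor, ranged from 5.42 to 22.5 and from 7.8 to 27.3. Cd14, the co-receptor for bacterial lipopolysaccharide, was the one of the 7 with a ratio below 1, at 92.1 to 169 normalised reads in control and 116 to 137 in acrylamide libraries, wholly within the control range.

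The 4 Fc receptors, which bind antibody, all had group ratios above 1, and all overlapped between groups. Their sequences are partly alike, so reads may have been divided among them in counting. Fcgr4 had 7, 4, 4 and 5 reads in control and 18, 8, 5 and 6 in acrylamide libraries, and its log2 ratio of means fell from 0.71 to 0.2 without acrylamide library 1. Fcgr1, the high-affinity receptor, had 17.6 to 24.8 normalised reads in control and 17.5 to 38.6 in acrylamide libraries, and its log2 ratio of means was 0.39 with and 0.17 without acrylamide library 1. Fcgr2b, the inhibitory receptor, had 20.6 to 31.4 and 23 to 41.3, and Fcgr3 had 33.3 to 41.7 and 25.3 to 64.3. Fcgr3 spread more widely after acrylamide, with an SD of 16.7 against 3.94.

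Of the 4 ITAM adaptors and their partners, 2 had a group ratio above 1 and 2 below, and the groups overlapped in all 4. Tyrobp (DAP12) had 92.1, 113, 83.5 and 121 normalised reads in control and 145, 78.1, 67.2 and 110.2 in acrylamide libraries. Its highest and lowest values were both in acrylamide libraries, and its limma estimate was -0.08 (SE 0.22, adjusted p = 0.93). The sign of its group ratio turned when the values were scaled to the total of all genes, with or without the Svs genes. Fcer1g, the common chain of Fc receptors, had 118 to 185 and 105 to 239.8. Trem2, a lipid-sensing receptor that signals through Tyrobp, had 66.3 to 103 and 48.7 to 113, and acrylamide library 1 was here among the low ones, at 56.6. Clec4n, which encodes the fungal receptor Dectin-2, had 2 to 7 reads in control and 1 to 5 in acrylamide libraries, too few to show a difference of the size of its group ratio of 0.70. Clec10a, a galactose-binding lectin of macrophages and dendritic cells, had 35.8 to 48 and 39.5 to 83.5, and its log2 ratio of means was 0.41 with and 0.15 without acrylamide library 1.

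Both chemokine receptors had group ratios above 1. Ccr2 had 22.5, 41.4, 31.4 and 32.7 normalised reads in control and 127, 22.1, 34.1 and 43.9 in acrylamide libraries. Acrylamide library 1 alone was high, and the log2 ratio of means fell from 0.82 to 0.06 without it. Cx3cr1, the fractalkine receptor, had 73.5, 72.5, 60.7 and 76.7 in control and 123, 75.4, 78.8 and 104 in acrylamide libraries. Its limma estimate was 0.40 (SE 0.18, adjusted p = 0.47), and 0.27 (SE 0.17, adjusted p = 0.69) without acrylamide library 1.

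**Figure D2:**
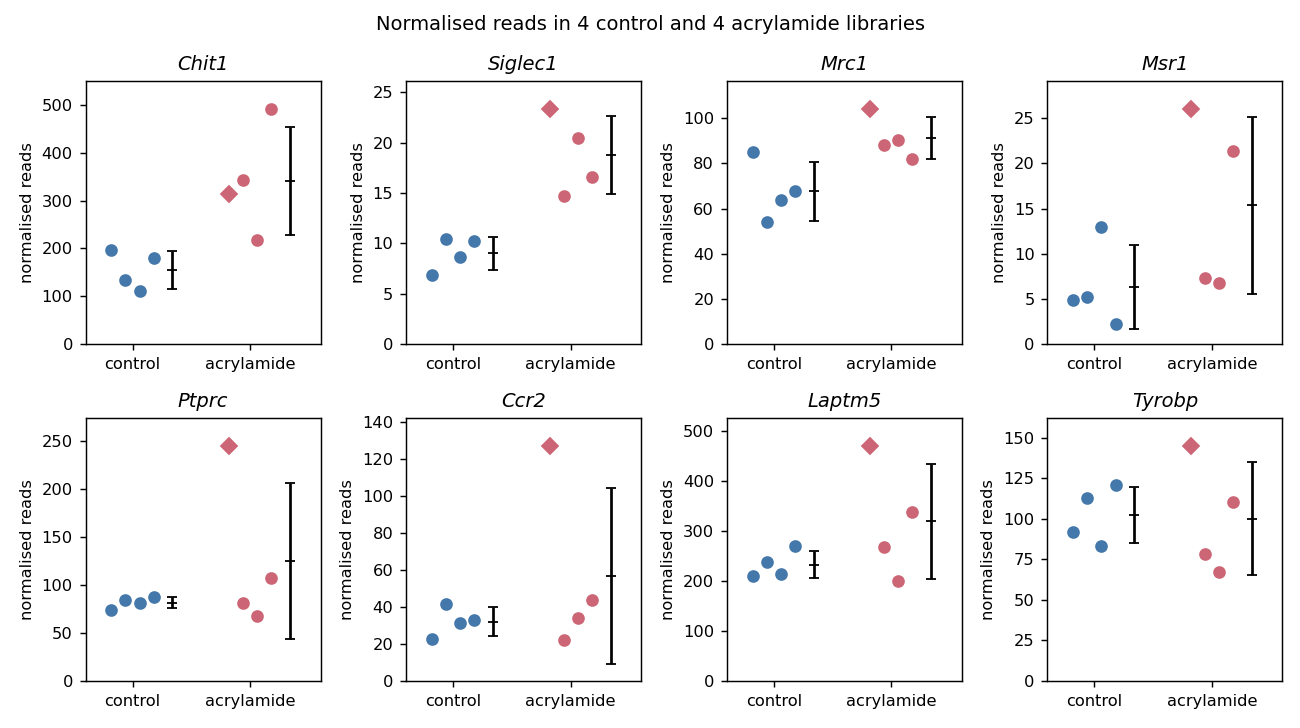
Normalised reads (y axis, from 0) of 8 genes in the 4 control (blue) and 4 acrylamide (red) libraries, with acrylamide library 1 as a diamond and the mean ± SD beside each group. Chit1 and Siglec1 do not overlap between groups, whereas in Ptprc and Ccr2 the diamond lies alone at 245 and 127.

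Of the 6 lysosomal, pore and secreted products, Lyz2 had a group value of 306 in control and 518 in acrylamide tissue (log2 ratio 0.76), with no spread, and reads of its near-identical neighbour Lyz1 may be counted in it. Mpeg1, which encodes the pore-forming protein perforin-2, had 239.5 and 319. Laptm5, a lysosomal membrane protein of leukocytes, had 209.7, 238, 214 and 269.7 normalised reads in control and 471, 268, 201 and 339 in acrylamide libraries. The highest and the lowest value were both in acrylamide libraries, with an estimate of 0.39 (SE 0.20, adjusted p = 0.53), and 0.19 (SE 0.16, adjusted p = 0.78) without acrylamide library 1. Lgals3 (galectin-3) had 71.1 to 105 and 67.1 to 120.3, and Gpnmb, a glycoprotein of lipid-laden macrophages, had 82.3 to 102 and 93.4 to 111. The estimate of Gpnmb was 0.17 (SE 0.13, adjusted p = 0.71).

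Of the 3 remaining genes, Lcp1 had group values of 2231 and 2261, far above all the others, with a log2 ratio of 0.02. Aif1, which encodes the actin-binding protein Iba1, had 19.5 to 30.5 normalised reads in control and 20.2 to 48.7 in acrylamide libraries, and its log2 ratio of means was 0.47 with and 0.3 without acrylamide library 1. Ms4a7, a membrane protein of mature macrophages, had 33.3 to 37.2 in control and 20.2 to 53 in acrylamide libraries.

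In most of these genes the acrylamide libraries varied more among themselves. The SD was larger in acrylamide than in control libraries for 21 of the 27 genes, and for 53.3% of all genes tested. The sum over the 27 genes was 1816, 1978, 1825 and 2065 normalised reads in control and 3121, 2147, 1876 and 2716 in acrylamide libraries. Acrylamide library 3 lay within the control range, and libraries 1, 2 and 4 above it. The means were 1921 ± 121 and 2465 ± 559.8 (SD, n = 4 each), and 2247 ± 428 (SD, n = 3) without acrylamide library 1.

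**Figure D3:**
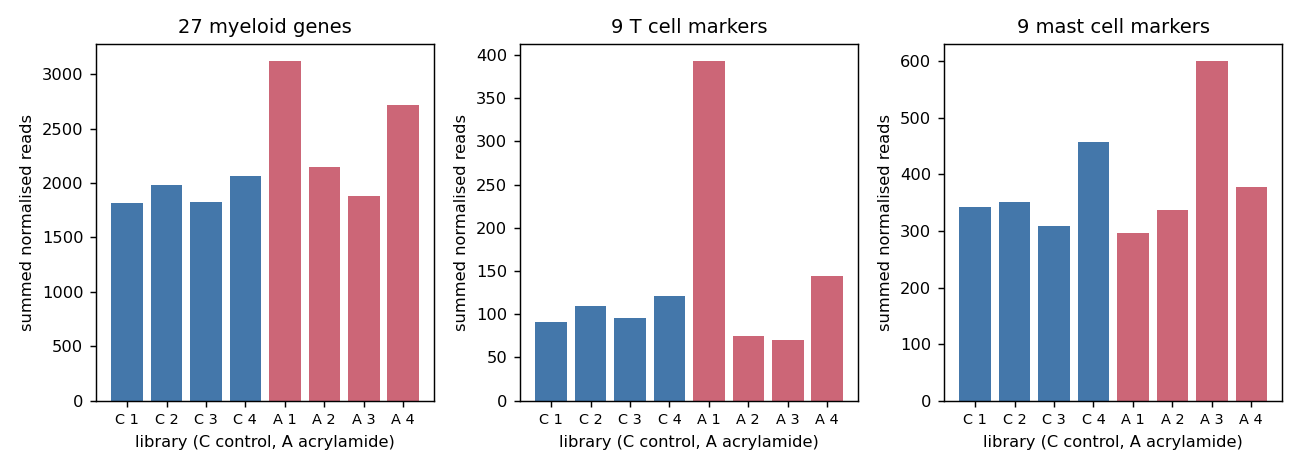
Summed normalised reads (y axis, from 0) in each control (C, blue) and acrylamide (A, red) library, for the 27 myeloid genes, 9 T cell markers and 9 mast cell markers. The T cell sum is 393 in acrylamide library 1, and the mast cell sum is highest in acrylamide library 3, at 600.5.

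**Figure D4:**
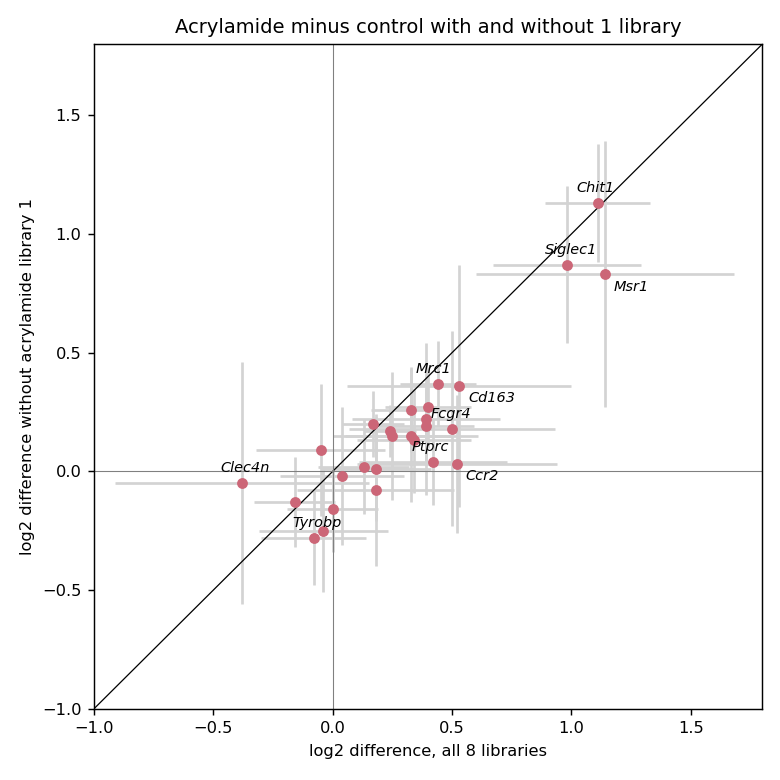
Limma estimate of acrylamide minus control (log2 scale, ± SE) of the 27 genes with all 8 libraries (x axis) and without acrylamide library 1 (y axis), beside the line of equal values. Chit1 stays at 1.11 and 1.13, and Ccr2 moves from 0.52 to 0.03.

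In each of the related lists, 0 genes passed the adjusted p of 0.1 in limma. Of 20 further macrophage markers, 17 were tested and 5 were higher at an unadjusted p under 0.05, with a median estimate of 0.31, beside 7.17% and 0.05 over all genes tested. Without acrylamide library 1 these were 3 and 0.24, and the summed markers were 2079.9 in that library against 1354 to 1754 in the others. C1qa, a subunit of complement C1q that macrophages make, had an estimate of 0.18 (SE 0.14, adjusted p = 0.71). Of 17 growth factors, chemokines and their receptors, 15 were tested and 4 were higher at that p, or 3 without acrylamide library 1. Among these, Csf1, the ligand of Csf1r, had an estimate of 0.31 (SE 0.14, adjusted p = 0.5), and Cx3cl1, the ligand of Cx3cr1, 0.25 (SE 0.10, adjusted p = 0.41). Of 10 myeloid transcription factors 3 were higher at that p, with and without that library, and Irf8, a factor of monocytes and dendritic cells, had 192 to 221 normalised reads in control and 204 to 347 in acrylamide libraries. Of 13 tested genes of Fc receptor and ITAM signalling 1 was higher, or 0 without it, and of 10 tested activation genes 1, namely Tgfb1, or 2 without it.

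Markers of other leukocytes differed in which library they followed. The sum over the 6 monocyte markers with reads was 137 in acrylamide library 1, of which Ly6c2 alone gave 78.1, and 21.6 to 62.1 in the other libraries. Without Ly6c2 it was 59.3 and 17.6 to 27.1. This sum leaves out Ace and Plac8, the most abundant of the list, with log2 group ratios of -0.09 and -0.28, and the median log2 ratio of the list was -0.01. The neutrophil sum was 42.1 to 79 in control and 50.6 to 79.9 in acrylamide libraries, and the eosinophil sum was at most 7.25 in any library. The mast cell sum was highest in acrylamide library 3 and lowest in acrylamide library 1, at 297. The sum over 5 endothelial markers was 429 to 484 in control and 514 to 802 in acrylamide libraries, again highest in library 1. The part of these cell types in the values of the myeloid genes was not tested.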

How the data were processed

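Poly(A) RNA of seminal vesicle tissue from 4 control and 4 acrylamide mice was sequenced on the DNBSeq platform. The methods name SOAPnuke for filtering, HISAT2 for mapping (build mm10), StringTie and Cufflinks for gene prediction and RSEM for counting, and the authors made the table with DESeq2. Tool versions are not given in the sources used here. The signal columns, as deposited by the authors, hold 1 value per gene and group in reads divided by size factors. The table's other columns hold the authors' fold changes and p-values and were not used.

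The mean of both group values is a sum of whole reads over the 8 libraries, each divided by its size factor. The 593 genes with 1 read gave the 8 weights. For genes with a mean under 300, whole-read vectors that give the mean to its last digits were listed. Only vectors within a set distance of the group values were searched. In 5067 genes, with means under 20, the mean alone left 1 vector, which was accepted without the steps that follow. For the others, vectors whose negative binomial fit gives the group ratio were kept, at a posterior of at least 0.99 and a chance limit of 0.02. Both routes together recovered 11877 of 12012 genes, 68.8% of the table. On 1421 genes fixed by the mean alone, the fit gave the log ratio within 1e-06 for 99.3%. The same genes, with means under 20, also set the parameters of the fit, so this check was not independent. The search was tested on simulated data, where the few wrong results had means of 200 to 300, the range of Csf1r, Chit1 and Laptm5. These data were drawn with the same fit and error model as the search, so they could not show errors of that model. The route by the mean alone was not tested on them. Mpeg1 missed the limit narrowly, at 0.9896. A narrower error model was then tried, after this was seen, and gave 0.9962. It is not used, because it was chosen for that gene, and 2 error models were tried in all.

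Recovered reads were divided by the size factors and tested with limma 3.58.1 in R 4.3.3, with a mean-variance trend, a pseudocount of 1 and a minimum mean of 1; fold changes on this scale are understated for genes with few reads. The fit was tested on simulated data, where it missed most small changes. Genes with a mean of 300 or more were not tested. Whether the samples came from separate cages or days is not stated, so p-values measure only the spread between these samples. The members and lists were chosen with earlier results of these data known. All members are named, and of each other list up to 4 genes past the threshold and 3 of the highest control value could be named. Tgfb1 and Irf8 are among these. Cd8b1 was named after its values were seen. Positions and promoters came from RefSeq (GRCm38.p6), and transcript lengths from GENCODE vM21. Python 3.11.15, numpy 2.4.6, pandas 2.3.3, numba 0.67.0 and matplotlib 3.10.9 were used.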

Additional observations from a re-analysis of the deposited data

Results flagged for a closer look

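Within each group of 4 libraries, the most distant library was set against Dixon's 95% critical value, in 56 groups (27 genes and their sum, each in both groups), and 3 passed; chance flags about 1 group in 20. For Csf1r, acrylamide library 1 lay apart at 278 normalised reads against 227 to 233, with a gap of 0.893 of the range. For Fcgr2b, control library 3 lay apart at 20.6 against 30.5 to 31.4, with a gap of 0.917 of the range. For Fcgr3, control library 1 lay apart at 33.3 against 40.4 to 41.7, with a gap of 0.841 of the range.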

How the results depend on the processing

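No paired analysis was possible because the recovered libraries cannot be matched to the replicate numbers of the labels. Scaling to the total of all genes moved every log2 ratio up by 0.17, so that the median of the 30 genes was 0.54 and 13 genes passed a ratio of 1.5 in either direction. A limit of 5/4 gave 17 genes and a limit of 2 gave 3, where 1.5 gave 7. The number of genes called by limma was 0 to 1 when each library was left out, and 0 under both other pseudocounts, both other filters, equal summed reads, no trend and an adjusted p of 0.05. Over these fits the adjusted p of Chit1 ranged from 0.09 to 0.43. The sign of the group ratio of Tyrobp turned under scaling to the total of all genes, with or without the Svs genes. The sign of the limma estimate turned in 7 genes, all when a library was left out, and the estimates then ranged from -0.08 to 0.45 for Spi1, -0.01 to 0.23 for Adgre1, -0.18 to 0.26 for Fcgr3, -0.28 to 0.09 for Tyrobp, -0.24 to 0.16 for Trem2, -0.16 to 0.12 for Lgals3 and -0.25 to 0.2 for Ms4a7. The cause was not tested. The ratio of summed reads was 1.28, and 1.17 without acrylamide library 1. Without that library, the median log2 ratio of the 27 genes with reads was 0.16 and 3 passed a ratio of 1.5. These alternatives were chosen after seeing the data. With the narrower error model, also chosen after seeing the data, the reads of Mpeg1 would be 205, 277, 202 and 223 in control and 569, 271, 201 and 327 in acrylamide libraries.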
